A study of Mus musculus with 56 samples.

Results

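N2a cells, a mouse neuroblastoma line, that had received a small interfering RNA (siRNA) against Fmr1 together with a plasmid for FLAG-tagged nuclear MBNL1 (siFmr1 nMBNL1, 3 libraries) were compared with N2a cells that had received the non-targeting siRNA and the control plasmid pcDNA (siNT pcDNA, 3 libraries). These are 6 of the 56 samples of the series, chosen by the siRNA and the plasmid in their titles. All cells in this experiment were 1 cell line and were transfected with siRNA and plasmid by Lipofectamine 3000. The comparison addresses what remains changed when Fmr1 is lowered and nuclear MBNL1 is raised at the same time. The siRNA and the plasmid both differ between the groups, so their contributions cannot be told apart in it. Cells with siFmr1 and the control plasmid (siFmr1 pcDNA, 3 libraries) were therefore set beside them, and the difference between siFmr1 nMBNL1 and siFmr1 pcDNA was tested directly. Cells with siRNA against Mbnl1 and either pcDNA (siMbnl1 pcDNA) or FLAG-tagged cytosolic MBNL1 (siMbnl1 cMBNL1), 3 libraries each, are cited for single genes. No group with siNT and nuclear MBNL1 was analysed here. The labels number the libraries of a group but do not state separate cultures, so p-values measure the spread between these libraries, which may be technical.

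FMRP, the product of Fmr1, is an RNA-binding protein found on polyribosomes and in RNA granules, and its loss causes fragile X syndrome. It binds many neuronal messenger RNAs and is best known for restraining their translation. MBNL1 is a zinc-finger RNA-binding protein of the muscleblind family. In the nucleus it controls alternative splicing, in the cytoplasm it affects the localisation and stability of messenger RNAs, and its capture by expanded CUG repeats underlies myotonic dystrophy.

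The measured values were normalised read counts per gene. They summed to 31955037 to 32898685 in the 6 libraries, and since the authors' scaling is not stated, the sequencing depth is unknown. The label of the cell line was checked first. None of 20 neuroblastoma markers was at 0 throughout a group, and their summed level was 124565 to 147692 in siNT pcDNA and 150945 to 171261 in siFmr1 nMBNL1. Summed markers of other cell types were at or under 1043 in every library, but several differed between the groups. From siNT pcDNA to siFmr1 nMBNL1 they were 85.6 to 146 and 198 to 221 for 7 epithelial, 386 to 425 and 520 to 592 for 6 endothelial, 863 to 1043 and 733 to 804 for 10 glial, 51.8 to 82.5 and 16.5 to 27.2 for 8 immune, and 195 to 238 and 206 to 282 for 9 fibroblast markers. Only the fibroblast ranges overlapped, and the part of such cells or genes in the results was not tested. The siNT pcDNA libraries stood apart from the rest. On the second principal component, with 23.1% of the variance over 15 libraries, they lay at 29.0 to 41.9 and the 12 others at -18.5 to 1.71. Their median SD of log2 values per gene was 0.189, against 0.0842 in siFmr1 nMBNL1. In siNT pcDNA 2 the ribosomal RNA precursor Rn45s took 1.92% of the total, with 612022 normalised counts, against 92378 and 177683 in the other siNT libraries and 50599 to 119999 in siFmr1 nMBNL1. What sets the siNT libraries apart was not tested.

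The silenced gene stayed low and the added one was high. Fmr1 (chrX:68678541-68717963, plus strand, GRCm38) had 2819, 3604 and 2856 normalised counts in siNT pcDNA and 418, 662 and 534 in siFmr1 nMBNL1. Every siFmr1 nMBNL1 library lay far under every siNT library, a 5.75-fold lower mean (log2 fold change -2.54 ± 0.17, SE; limma, adjusted p = 0.000145). The libraries with siFmr1 and the control plasmid held 588, 583 and 612. The direct difference between the siFmr1 groups was -0.17 (95% confidence interval -0.43 to 0.09, adjusted p = 0.386), so a change of Fmr1 by the plasmid was not detected. Mbnl1 (chr3:60472830-60629750, plus strand) had 4410, 5017 and 3759 normalised counts in siNT pcDNA and 11030, 12130 and 13250 in siFmr1 nMBNL1. All 3 libraries with the plasmid lay above all siNT pcDNA and siFmr1 pcDNA libraries, 2.76-fold over siNT (log2 fold change 1.47 ± 0.13, SE; adjusted p = 0.000253). In siFmr1 pcDNA it had 4563, 4445 and 4694, near siNT pcDNA. Reads of the plasmid and of the endogenous gene cannot be separated in this table.

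With Fmr1 low and nuclear MBNL1 high, a large part of the transcriptome still differed from control cells. Of 16238 genes tested, 4166 passed the limma test at an adjusted p under 0.05, 25.7% of the genes. Higher were 2139 (13.2%) and lower 2027 (12.5%). A further threshold of 1 on the log2 scale left 808 higher and 299 lower genes, and the median absolute log2 fold change of the called genes was 0.66. The median over all genes was 0.04. Potassium channel genes, an ER-resident neurotrophic factor and genes of the noradrenergic phenotype were among those that rose, and lysosomal enzymes, sterol synthesis, clock genes and the nuclear RNA Neat1 among those that fell. In 7300 genes (45.0%) the 3 libraries of one group did not overlap the 3 of the other, and 4155 of these also passed the test. Leaving out siFmr1 nMBNL1 replicate 1, 2 or 3 lowered the count of calls to 1993, 1787 and 2030. Leaving out siNT pcDNA 1, 2 or 3 gave 5025, 5374 and 3059. Rescaling the libraries to equal upper quartiles moved the median of all genes to 0.16 and the split to 3125 higher and 1245 lower genes.

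**Figure D1:**
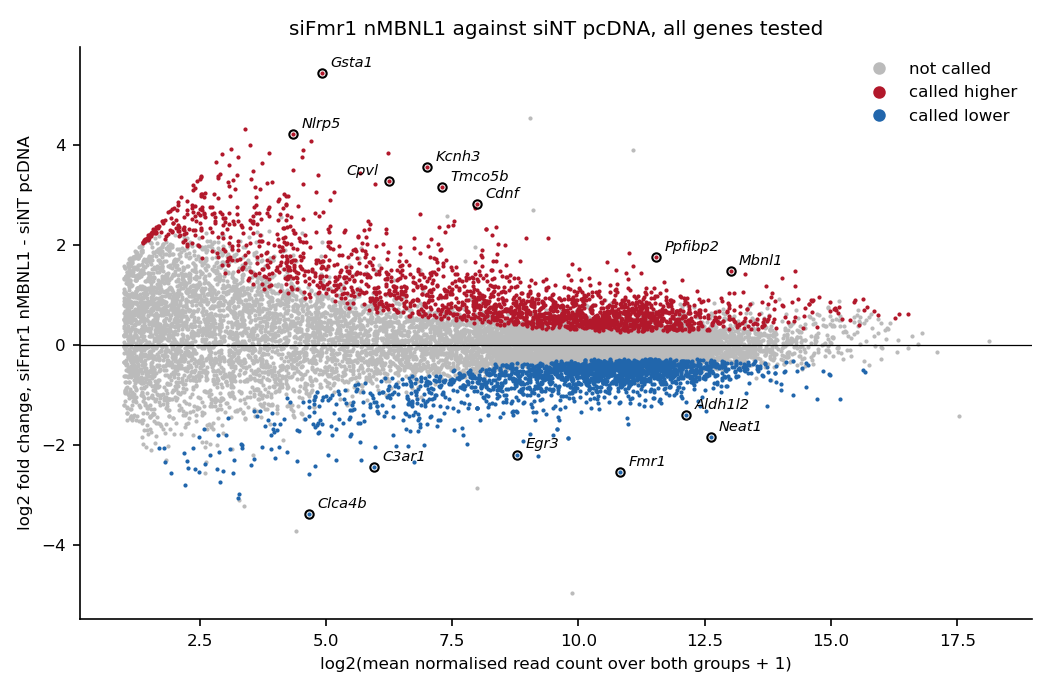
Log2 fold change of siFmr1 nMBNL1 over siNT pcDNA (vertical axis) against the log2 mean normalised read count of both groups (horizontal axis) for 16238 genes, with called genes in colour. Called genes lie on both sides at every level, Mbnl1 at 1.47 and Fmr1 at -2.54.

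Against siFmr1 pcDNA, which differs only in the plasmid, the changes were smaller. There 1305 of 16328 genes were higher (7.99%) and 1507 lower (9.23%), with a median absolute log2 fold change of the called genes of 0.28. Of these, 105 higher and 34 lower genes had a log2 fold change of at least 1 in size. The median of 0.28 is not like for like with the 0.66 against siNT pcDNA, since called genes were selected at an unlike spread. The median SD per gene was 0.0708 in siFmr1 pcDNA and 0.0842 in siFmr1 nMBNL1, against 0.189 in siNT pcDNA. For comparison, siFmr1 pcDNA against siNT pcDNA gave 1974 higher (12.3%) and 1684 lower genes (10.5%) of 16097. These 3 comparisons share libraries, so their values are given gene by gene and no overlap is drawn from them. Leaving out siFmr1 nMBNL1 replicate 1, 2 or 3 changed the direct count of 2812 to 3699, 1056 and 1728, and leaving out siFmr1 pcDNA 1, 2 or 3 to 982, 1106 and 3056. Upper-quartile scaling gave 1808 higher and 1149 lower genes, and a fit of all 15 libraries 286 calls.

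A first set of strongly raised genes was high in both siFmr1 groups, with direct differences that did not pass the test. Kcnh3 (chr15:99224861-99242817, plus strand), which encodes a voltage-gated potassium channel, had 16.8, 28.9 and 13.6 normalised counts in siNT pcDNA and 284, 209 and 213 in siFmr1 nMBNL1. It was 11.9-fold higher (log2 fold change 3.56 ± 0.29, adjusted p = 0.000203), and siFmr1 pcDNA held 236, 210 and 242. The lowest siFmr1 nMBNL1 library was far above the highest siNT library, and the direct difference from siFmr1 pcDNA was 0.02 (interval -0.26 to 0.30). Cpvl (chr6:53873279-53978671, minus strand), a serine carboxypeptidase, had 18.0, 11 and 11.5 in siNT pcDNA and 149, 130 and 130 in siFmr1 nMBNL1, a 10.1-fold difference (log2 3.27 ± 0.27). Its levels of 147, 116 and 160 in siFmr1 pcDNA overlapped those with nuclear MBNL1. Ppfibp2 (chr7:107595207-107748583, plus strand), the scaffold protein liprin-beta 2, had 1254, 1452 and 1396 normalised counts in siNT pcDNA against 4775, 4396 and 4627. The rise was 3.36-fold (log2 1.75 ± 0.10, adjusted p = 0.000145), and in siFmr1 pcDNA the gene had 4926, 5202 and 4905. These lay above all 3 libraries with nuclear MBNL1, with a direct difference of -0.12 (interval -0.23 to -0.02) that did not pass (adjusted p = 0.105).

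Other genes of this kind were also above siNT pcDNA in cells treated against Mbnl1. Kcnab1, a beta subunit of voltage-gated potassium channels, had 262, 274 and 208 normalised counts in siNT pcDNA and 1124, 1109 and 1049 in siFmr1 nMBNL1 (log2 fold change 2.15 ± 0.13). The siMbnl1 pcDNA libraries, with 674, 598 and 679, lay between them. Spag16, a protein of the sperm axoneme, rose 6.27-fold (log2 2.62 ± 0.21), with 38.9, 30.3 and 26.7 against 212, 209 and 180, and it had 180, 122 and 186 in siMbnl1 pcDNA. Hist1h2bc, an H2B histone gene, rose 5.13-fold (log2 2.37 ± 0.17), with 118, 84.9 and 118 against 538, 568 and 540. It had 438, 354 and 467 in siMbnl1 pcDNA. For these 3 genes the siNT pcDNA libraries were the lowest of the 15, and the direct test between the siFmr1 groups did not pass (adjusted p = 0.381, 0.782 and 0.194). No test was made on the siMbnl1 groups.

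**Figure D2:**
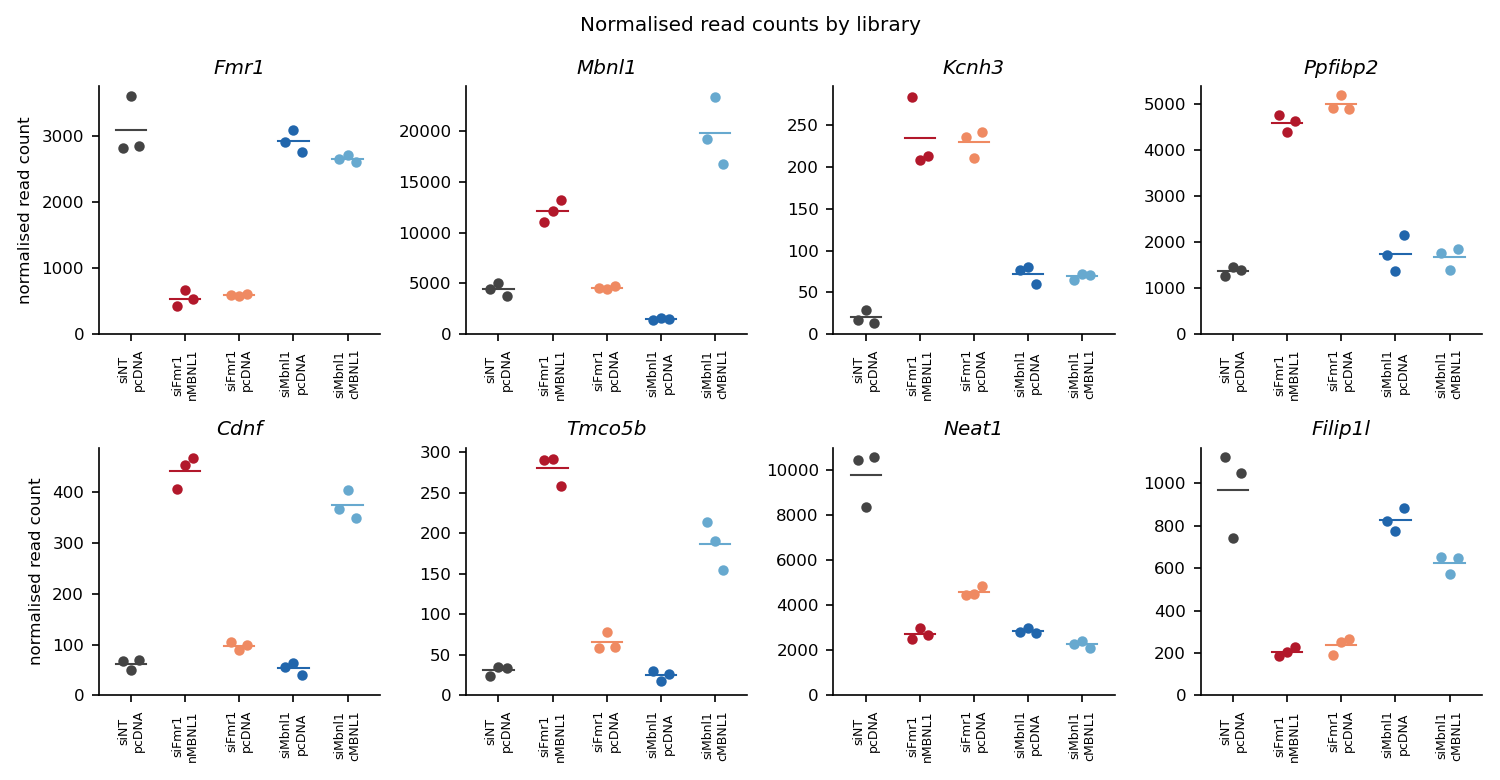
Normalised read count of 8 genes in each of the 15 libraries, with points for libraries and bars for group means of 3. Kcnh3 and Ppfibp2 are far above siNT pcDNA in both siFmr1 groups, while Cdnf and Tmco5b are high in the groups with an MBNL1 plasmid.

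A second set rose over siNT pcDNA and was higher again with the nuclear MBNL1 plasmid than with siFmr1 alone. Cdnf (chr2:3513030-3526376, plus strand), a neurotrophic factor retained in the endoplasmic reticulum, had 68.3, 49.9 and 70.0 normalised counts in siNT pcDNA, 104, 89.9 and 98.4 in siFmr1 pcDNA, and 406, 453 and 466 in siFmr1 nMBNL1. The increase over siNT was 7.04-fold (log2 fold change 2.81 ± 0.18, adjusted p = 0.000145), and the direct difference was 2.17 (adjusted p = 7.18e-08). Tmco5b (chr2:113285732-113297190, plus strand), a transmembrane coiled-coil protein, had 24.5, 34.9 and 33.4 in siNT pcDNA and 290, 292 and 258 in siFmr1 nMBNL1. It rose 9.06-fold (log2 3.15 ± 0.20), and with 59.0, 78.0 and 60.1 in siFmr1 pcDNA the direct difference was 2.08 (adjusted p = 2.59e-06). Both genes were also high with the other MBNL1 plasmid, at 366, 404 and 349 (Cdnf) and 214, 190 and 155 (Tmco5b) in siMbnl1 cMBNL1, against 55.1, 64.0 and 40.8 and 30.6, 18.1 and 26.4 in siMbnl1 pcDNA. H2-DMa, which loads peptides onto MHC class II molecules, had 61.4, 57.8 and 53.2 in siNT pcDNA and 306, 341 and 275 in siFmr1 nMBNL1 (log2 2.40 ± 0.17; direct difference 1.56, adjusted p = 1.01e-05). Its siFmr1 pcDNA libraries held 95.2, 105 and 111, all above siNT and all under the libraries with nuclear MBNL1. Tcte3, a dynein light chain, had 113, 38.8 and 57.0 against 468, 389 and 423 (log2 2.73 ± 0.33). In siFmr1 pcDNA it had 262, 249 and 271, and the direct difference was 0.71 (adjusted p = 0.000636).

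Some of the largest fitted differences came from genes that were nearly silent in control cells, where the value depends on the added 1. Gsta1, a glutathione transferase, had 0, 0 and 1.04 normalised counts in siNT pcDNA and 33, 86.9 and 54.2 in siFmr1 nMBNL1 (log2 5.43 ± 0.52, adjusted p = 0.000383). In siFmr1 pcDNA it had only 2.27, 0 and 18.3, and the direct difference was 3.78 (adjusted p = 0.00423). It was between 64.8 and 103 in siMbnl1 pcDNA, so a high level was also seen without the nuclear MBNL1 plasmid. The related Gsta2 was listed at 0 in all siNT pcDNA libraries and at 8.73, 12.9 and 24.7 in siFmr1 nMBNL1. Reads of such closely related genes may be split between them. Nlrp5, a maternal-effect gene of the oocyte, had 0, 0.981 and 3.26 against 32.2, 48.2 and 32.1 (log2 4.21 ± 0.56, adjusted p = 0.00135). It also was higher than in siFmr1 pcDNA (direct difference 1.76, adjusted p = 0.00571), where it had 5.76, 11.4 and 15.7. Nup62-il4i1, a read-through gene that overlaps its neighbours, had 0, 16.9 and 0 against 62.9, 42.3 and 29.6 (adjusted p = 0.0165), and reads of the overlapping genes cannot be told apart in it. Without any one siFmr1 nMBNL1 library or siNT pcDNA 3 it did not pass (adjusted p = 0.0506 to 0.0791).

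Among lowered genes, Filip1l, Clca4b and C3ar1 had low levels in both siFmr1 groups. Filip1l (chr16:57353093-57573126, plus strand), a filamin A-interacting protein homologue, had 1123, 743 and 1048 normalised counts in siNT pcDNA and 187, 205 and 230 in siFmr1 nMBNL1. It fell by 2.21 ± 0.17 on the log2 scale (adjusted p = 0.000201), a 4.69-fold lower mean, and siFmr1 pcDNA held 193, 253 and 267. C3ar1, the receptor of complement C3a, had 95.3, 108 and 108 against 17.4, 16.4 and 21.3 (log2 -2.44 ± 0.24). In siMbnl1 pcDNA it had 52.4, 55.5 and 54.6, between both. Clca4b, a calcium-activated chloride channel regulator, had 35.8, 56.8 and 41.8 against 0.968, 3.45 and 8.28 (log2 -3.38 ± 0.55). Its levels in siFmr1 pcDNA were 1.10 to 2.27, so the gene did not exceed 8.28 in any siFmr1 library.

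Dr1, Cyr61 and Aldh1l2, at high levels in control cells, also fell by more than 1 on the log2 scale, with smaller direct differences between the siFmr1 groups. Dr1, a subunit of the transcriptional repressor NC2, had 2746, 3152 and 2909 normalised counts in siNT pcDNA and 1001, 1140 and 1058 in siFmr1 nMBNL1 (log2 -1.46 ± 0.10). In siFmr1 pcDNA it had 1239, 1210 and 1173, and the direct difference was -0.18 (adjusted p = 0.0707). Cyr61, a matricellular protein and a target of the YAP coactivator, had 757, 743 and 767 against 228, 178 and 196 (log2 -1.91 ± 0.13). Aldh1l2, a mitochondrial enzyme of folate metabolism, had 6344, 7144 and 6111 against 2511, 2414 and 2490 (log2 -1.40 ± 0.10) and was somewhat lower than in siFmr1 pcDNA (direct difference -0.35, adjusted p = 0.00111). Nppb, the precursor of brain natriuretic peptide, had 219, 137 and 181 against 35.0, 40.4 and 28.2 (log2 -2.33 ± 0.24), and the olfactory receptor gene Olfr1259 had 95.5, 130 and 76.0 against 19.4, 22.4 and 28.3 (log2 -2.04 ± 0.28). In siMbnl1 pcDNA their levels were 69.2 to 76.1 (Nppb) and 45.2 to 77.3 (Olfr1259), above those of siFmr1 nMBNL1. Dio2, the deiodinase that activates thyroid hormone, had 52.7, 16.9 and 36.6 against 5.81, 5.18 and 5.92, and the fetal serum protein gene Afp had 72.7, 13.0 and 43.9 against 2.90, 6.04 and 7.09, with a wide spread in siNT pcDNA. Afp did not pass the test without siFmr1 nMBNL1 replicate 1 (adjusted p = 0.0652) or siNT pcDNA 3 (adjusted p = 0.0578).

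Neat1 and Egr3 were lower than in both other groups. Neat1 (chr19:5824708-5845478, minus strand), the long noncoding RNA that builds nuclear paraspeckles, had 10440, 8378 and 10590 normalised counts in siNT pcDNA, 4455, 4494 and 4850 in siFmr1 pcDNA, and 2514, 2980 and 2698 in siFmr1 nMBNL1. The groups were fully separated, with a log2 fold change of -1.84 ± 0.12 against siNT (adjusted p = 0.000145) and -0.75 ± 0.06 against siFmr1 pcDNA (adjusted p = 9.78e-06). The siMbnl1 pcDNA libraries, with 2799, 3009 and 2793, were as low. Malat1, its nuclear-retained neighbour, had 5350 to 7498 in siNT pcDNA and 3148 to 3973 in siFmr1 nMBNL1 (log2 -0.88, adjusted p = 0.00292). It was chosen after its values were seen. Egr3 (chr14:70077203-70082614, plus strand), an immediate early transcription factor, had 688, 726 and 751 in siNT pcDNA, 327, 220 and 299 in siFmr1 pcDNA, and 177, 121 and 183 in siFmr1 nMBNL1. Its log2 fold change was -2.19 ± 0.17 against siNT and -0.81 (adjusted p = 0.00592) against siFmr1 pcDNA.

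Gene lists for pathways and cell properties were described by their counts and medians, to be read against the 13.2% of all genes called higher, the 12.5% called lower and the median of 0.04. Counts of the direct comparison with siFmr1 pcDNA are to be read against its own 7.99% higher, 9.23% lower and median of 0.00. These direct list counts were not rerun under other settings. Over all genes the 2812 direct calls became 286 with all 15 libraries in 1 fit, and 982 to 3699 with single libraries left out. Apart from the lists of cell type markers, those with the lowest medians were cholesterol synthesis (-0.60), the circadian clock (-0.58) and lysosome and autophagy (-0.52). Those with the highest medians were the cytosolic ribosome (0.59), oxidative phosphorylation (0.57) and neuroblastoma identity (0.51). Marker lists with few tested members had medians of -1.68 (immune, 3 tested), 1.49 (epithelial, 6 tested) and 1.32 (glia and Schwann, 8 tested). The other marker lists lay at 0.25 to 0.37.

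**Figure D3:**
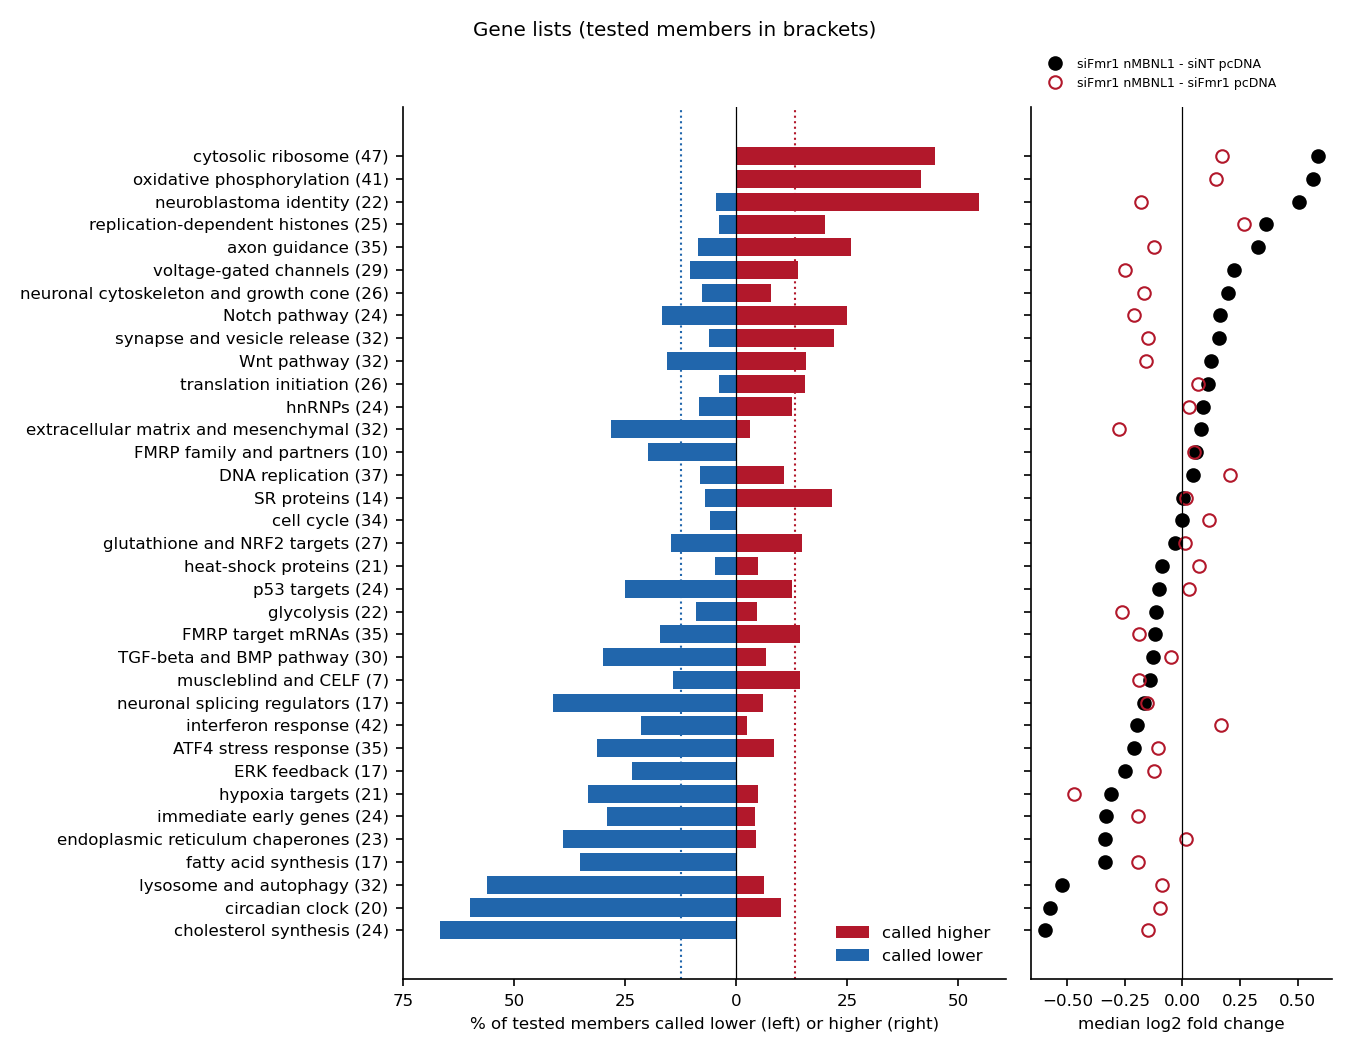
Left, percent of tested members of each gene list called lower (blue, left) or higher (red, right) in siFmr1 nMBNL1 against siNT pcDNA. Lists of cell type markers are not shown. Dotted lines are at the 12.5% and 13.2% of all genes. Right, the median log2 fold change of each list in that comparison (filled) and against siFmr1 pcDNA (open). Of the lists shown, cholesterol synthesis is lowest at -0.60 and the ribosome highest at 0.59.

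Most lysosomal genes were lower with Fmr1 silenced and nuclear MBNL1 raised. Of 32 tested genes of lysosome and autophagy, 18 fell and 2 rose, with a median log2 fold change of -0.52. In siFmr1 pcDNA against the same siNT libraries, 18 fell and 2 rose as well, with a median of -0.42, and the direct difference between the siFmr1 groups had a median of -0.09 with 8 lower and 3 higher. The members that rose were Tfeb, the transcription factor that drives lysosomal genes, with 324, 296 and 382 normalised counts in siNT pcDNA against 578, 585 and 528 in siFmr1 nMBNL1 (log2 0.76 ± 0.13), and Wipi1, a phosphoinositide-binding protein of autophagosome formation, with 2587, 2669 and 3071 against 4715, 4045 and 4320 (log2 0.65 ± 0.11). So the list's members did not move one way. Without siFmr1 nMBNL1 replicate 2 or replicate 3 the lower count was 10 of 32.

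Lysosomal genes share the CLEAR element, the site of TFEB and related factors, whose core TCACGTG was searched on both strands in promoter windows of 300 bases, from 250 before to 50 after the start of each transcript (RefSeq, GRCm38.p6). It contains the E-box CACGTG. A window was found for 26 of the 32 tested members, and 8 of these (30.8%) held the core, against 3.77% of all 32851 windows and 4.29% of 27025 gene symbols. Of the 8 members with the core 5 fell, and of the 18 without it 9 fell. A match describes letters, not binding. Shown are windows of Lamp1, a lysosomal membrane glycoprotein (chr8:13158911-13159210, plus strand), Gaa, acid alpha-glucosidase (chr11:119267713-119268012, plus strand), Ctsa, cathepsin A (chr2:164833523-164833822, plus strand), and Ctsd, cathepsin D (chr7:142387778-142388077, minus strand), 4 of the 5 members that held the core and fell. They were chosen after their values were seen. The core is in capitals, and neighbouring or palindromic matches on both strands run together.
Lamp1: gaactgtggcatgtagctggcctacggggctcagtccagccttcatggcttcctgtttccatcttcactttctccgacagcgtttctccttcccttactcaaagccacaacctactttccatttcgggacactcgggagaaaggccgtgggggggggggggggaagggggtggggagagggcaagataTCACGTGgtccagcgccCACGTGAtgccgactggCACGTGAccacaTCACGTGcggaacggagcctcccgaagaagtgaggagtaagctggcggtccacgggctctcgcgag
Gaa: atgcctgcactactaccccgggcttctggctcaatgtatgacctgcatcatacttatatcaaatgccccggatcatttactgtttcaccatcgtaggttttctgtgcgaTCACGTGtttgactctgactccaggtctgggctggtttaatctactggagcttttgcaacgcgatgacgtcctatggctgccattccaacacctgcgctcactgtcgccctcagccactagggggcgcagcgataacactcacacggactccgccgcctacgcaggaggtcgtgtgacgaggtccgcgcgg
Ctsa: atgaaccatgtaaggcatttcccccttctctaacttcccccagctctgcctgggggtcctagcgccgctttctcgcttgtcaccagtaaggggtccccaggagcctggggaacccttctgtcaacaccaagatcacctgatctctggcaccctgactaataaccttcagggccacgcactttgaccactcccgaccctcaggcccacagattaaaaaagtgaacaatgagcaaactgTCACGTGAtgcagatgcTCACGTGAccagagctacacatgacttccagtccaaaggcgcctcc
Ctsd: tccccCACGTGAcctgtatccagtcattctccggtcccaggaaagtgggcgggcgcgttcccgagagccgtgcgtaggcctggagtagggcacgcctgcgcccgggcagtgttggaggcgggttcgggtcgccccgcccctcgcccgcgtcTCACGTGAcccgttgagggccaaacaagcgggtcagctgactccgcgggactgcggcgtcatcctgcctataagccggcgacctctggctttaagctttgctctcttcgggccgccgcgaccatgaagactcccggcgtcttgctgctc
Lamp1 had 55460, 46150 and 49250 normalised counts in siNT pcDNA and 24110, 23460 and 24050 in siFmr1 nMBNL1, 2.11-fold lower (log2 -1.07 ± 0.13), and 23650, 24180 and 23660 in siFmr1 pcDNA. Gaa had 16250, 19890 and 20650 against 9615, 7826 and 6948 (log2 -1.23 ± 0.15). Ctsa had 9170, 8089 and 10250 against 5329, 5119 and 5167 (log2 -0.81 ± 0.11). Ctsd fell least, with 62740, 54120 and 68300 against 46080, 39420 and 42450 (log2 -0.53 ± 0.15, adjusted p = 0.0289), and did not pass without any one siFmr1 nMBNL1 library, without siNT pcDNA 3, with upper-quartile scaling or with the replicate block (adjusted p = 0.0649 to 0.147). All 4 genes were lower in every siFmr1 nMBNL1 library than in any siNT library.

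Most genes of cholesterol synthesis, and some of fatty acid synthesis, fell. Of 24 tested genes of cholesterol synthesis 16 fell and none rose, with a median of -0.60, and leaving out single libraries kept the lower count between 14 and 18. Against siFmr1 pcDNA, 8 were lower and none higher, with a median of -0.15. Idi1, isopentenyl diphosphate isomerase, had 7060, 5782 and 5776 normalised counts in siNT pcDNA and 2709, 2841 and 2864 in siFmr1 nMBNL1 (log2 -1.14 ± 0.11, adjusted p = 0.000355). Msmo1, a sterol demethylating oxidase, had 4710, 3995 and 4204 against 2420, 2186 and 2512 (log2 -0.86 ± 0.10). The 3 libraries of each group lay close together and clear of the other group in both genes. In the fatty acid synthesis list 6 of 17 fell and none rose, with a median of -0.34. Elovl6, which elongates fatty acids, had 3760, 3746 and 3265 against 1850, 1827 and 2027 (log2 -0.92 ± 0.10), and Pnpla3, an enzyme of lipid droplets, had 627, 640 and 712 against 259, 292 and 340 (log2 -1.16 ± 0.14). Pnpla3 was lower than in siFmr1 pcDNA too, by -0.43 (adjusted p = 0.0146), a call lost without siFmr1 nMBNL1 2 (adjusted p = 0.0656) or siFmr1 pcDNA 2 (adjusted p = 0.0781). Only 2 of the 17 were called lower without siFmr1 nMBNL1 replicate 2 or 3, without siNT pcDNA 3, or with upper-quartile scaling.

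The sterol response element, where SREBP factors bind, was searched as TCACCCCAC on both strands in the same windows. It was in 1 of 17 members of cholesterol synthesis with a window, Hmgcs1, and in 0.551% of all windows and 0.614% of gene symbols. Of the 16 members without it 10 fell. Hmgcs1 encodes the cytosolic synthase that precedes HMG-CoA reductase, and its window (chr13:119690101-119690400, plus strand) is shown with the element in capitals, chosen because it alone in the list held these letters.
Hmgcs1: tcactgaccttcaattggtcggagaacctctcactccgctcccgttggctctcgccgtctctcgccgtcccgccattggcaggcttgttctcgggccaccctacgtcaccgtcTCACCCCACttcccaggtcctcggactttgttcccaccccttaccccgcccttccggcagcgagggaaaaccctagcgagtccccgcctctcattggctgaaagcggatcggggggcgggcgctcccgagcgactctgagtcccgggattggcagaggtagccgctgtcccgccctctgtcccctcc
Hmgcs1 had 5511, 6916 and 5557 normalised counts in siNT pcDNA, 4406, 4435 and 4528 in siFmr1 pcDNA, and 4022, 3589 and 3749 in siFmr1 nMBNL1. It was lower than in siNT (log2 -0.66 ± 0.11, adjusted p = 0.00408) and than in siFmr1 pcDNA (log2 -0.24, adjusted p = 0.00743, and 0.0609 without siFmr1 nMBNL1 2).

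Most clock genes fell, while Arntl rose. Of 20 tested, 12 fell and 2 rose, with a median of -0.58, and in the direct comparison 4 were lower and none higher, with a median of -0.10. Arntl, which encodes the activator BMAL1, had 571, 572 and 522 normalised counts in siNT pcDNA and 995, 961 and 931 in siFmr1 nMBNL1 (log2 0.79 ± 0.10). Hlf, an output transcription factor of the PAR bZIP family, had 1003, 1034 and 1087 against 441, 483 and 418 (log2 -1.22 ± 0.11). Per1, a repressor of BMAL1, had 1289, 1652 and 1703 against 888, 773 and 803 (log2 -0.91 ± 0.13) and was also lower than in siFmr1 pcDNA (log2 -0.33, adjusted p = 0.00596). Without siFmr1 nMBNL1 replicate 2 the lower count was 7, and with upper-quartile scaling 8. The E-box CACGTG is a palindrome bound by BMAL1 and its partner CLOCK. It was in 5 of 17 members with a window (29.4%), against 7.15% of all windows and 8.09% of gene symbols. Of those 5, Per1, Tef, Bhlhe41 and Ciart fell and Cry1 did not pass the test, and of the 12 without it 7 fell. Without any one siFmr1 nMBNL1 library Tef and Bhlhe41 did not pass (adjusted p = 0.0844 to 0.144), nor did Ciart without replicate 2 (adjusted p = 0.0532). The Per1 window (chr11:69098699-69098998, plus strand) is shown with its E-box in capitals because Per1 is the best-known E-box gene of the list.
Per1: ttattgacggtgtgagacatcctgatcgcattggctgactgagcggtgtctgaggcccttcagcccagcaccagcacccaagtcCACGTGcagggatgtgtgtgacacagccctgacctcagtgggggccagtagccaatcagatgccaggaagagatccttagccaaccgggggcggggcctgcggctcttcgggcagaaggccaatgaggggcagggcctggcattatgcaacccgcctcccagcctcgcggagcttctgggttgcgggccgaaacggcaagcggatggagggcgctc
In this window, which lies at one of the annotated Per1 starts, the E-box occurs once.

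Chaperones of the endoplasmic reticulum and ATF4 targets were in part lower. Of 23 chaperone and quality-control genes 9 fell and 1 rose, with a median of -0.33. Herpud1 and Sel1l, both parts of the degradation machinery of the endoplasmic reticulum, had log2 fold changes of -0.68 ± 0.10 and -0.67 ± 0.11. Herpud1 had 5438, 4399 and 5089 normalised counts against 3180, 3046 and 3042, and Sel1l 3338, 4241 and 3514 against 2454, 2263 and 2242. The member that rose was Sec61b, a subunit of the translocon, with 2066, 1020 and 2245 against 2988, 3087 and 3047 (log2 0.86 ± 0.25, adjusted p = 0.0332), where siNT pcDNA 2 was the lowest. Without siFmr1 nMBNL1 1, 2 or 3, the count of lower members was 5, 2 and 5, and Sec61b did not pass (adjusted p = 0.102 to 0.104). The ER stress response element was searched as CCAAT, 9 bases of any kind and CCACG on both strands. It was in 9 of 19 members with a window (47.4%), against 0.119% of all windows and 0.137% of gene symbols. Of these 9 members 2 fell, Hsp90b1 and Dnajc3, and of the 10 without it 6 fell. Dnajc3, a co-chaperone, did not pass without siFmr1 nMBNL1 1 (adjusted p = 0.0643) or 2 (adjusted p = 0.0692). The window of Hsp90b1, which encodes the chaperone GRP94 (chr10:86705395-86705694, minus strand), is shown with its elements in capitals, chosen after its value was seen.
Hsp90b1: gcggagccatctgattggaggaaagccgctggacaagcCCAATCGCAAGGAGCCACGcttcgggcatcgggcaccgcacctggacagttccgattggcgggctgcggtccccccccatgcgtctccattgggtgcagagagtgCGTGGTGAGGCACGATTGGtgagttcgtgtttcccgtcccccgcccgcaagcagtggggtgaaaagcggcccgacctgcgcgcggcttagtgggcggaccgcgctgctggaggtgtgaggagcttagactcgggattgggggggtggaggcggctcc
Hsp90b1 had 63720, 60090 and 53980 normalised counts in siNT pcDNA and 42250, 39700 and 44450 in siFmr1 nMBNL1 (log2 -0.49 ± 0.14, adjusted p = 0.0291). That call was lost without any one siFmr1 nMBNL1 library (adjusted p = 0.0903 to 0.149). It was also lost with no filter, upper-quartile scaling or the replicate block (adjusted p = 0.0525 to 0.0891). The siFmr1 pcDNA libraries, with 41030, 40880 and 41450, were at the same level.

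Among 35 targets of ATF4, the transcription factor of the amino acid response, 11 fell and 3 rose, with a median of -0.21. Slc7a11, the cystine-glutamate exchanger, had 3971, 4877 and 3913 normalised counts in siNT pcDNA and 1919, 1852 and 2090 in siFmr1 nMBNL1 (log2 -1.12 ± 0.11). Gpt2, mitochondrial alanine aminotransferase, had 2736, 3004 and 2665 against 1497, 1274 and 1205 (log2 -1.08 ± 0.11). Cbs, cystathionine beta-synthase, went the other way, with 192, 176 and 188 against 654, 532 and 521 (log2 1.61 ± 0.14), and had 517, 525 and 475 in siFmr1 pcDNA. So the sulfur amino acid gene Cbs rose while the cystine exchanger fell. Fgf21, a secreted stress hormone, was at 0, 0.996 and 0 in siNT pcDNA and at 11.6, 10.3 and 5.89 in siFmr1 nMBNL1. The lower count was 5 without siFmr1 nMBNL1 2 or 3, 7 without siNT pcDNA 3, and 6 with upper-quartile scaling.

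Genes of the noradrenergic neuroblastoma phenotype rose in part over control cells, and some of them were lower than with siFmr1 alone. Of 22 tested, 12 rose and 1 fell, with a median of 0.51. In siFmr1 pcDNA against siNT pcDNA 13 of 23 rose and none fell, with a median of 0.69. The direct comparison between the siFmr1 groups had 8 of 23 lower and none higher, with a median of -0.18, while 9.23% of all genes were lower in it. Dbh, which makes noradrenaline, had 107, 101 and 132 normalised counts in siNT pcDNA and 524, 447 and 319 in siFmr1 nMBNL1 (log2 1.90 ± 0.21, 3.80-fold). Slc18a2, the vesicular monoamine transporter, had 1223, 1383 and 1419 in siNT pcDNA, 3230, 3147 and 3063 in siFmr1 pcDNA, and 2592, 2417 and 2597 in siFmr1 nMBNL1. The order of the 3 groups did not overlap for Slc18a2, with a log2 fold change of 0.92 ± 0.10 against siNT and -0.31 ± 0.05 against siFmr1 pcDNA (adjusted p = 0.00166). Chga, the granule protein chromogranin A, had 2569, 3331 and 4126 against 8098, 6546 and 6419 (log2 1.09 ± 0.17). Gata2, a transcription factor of sympathetic neurons, was the member that fell, with 5670, 7796 and 7320 against 4937, 4429 and 4104 (log2 -0.62 ± 0.14). It was lower than in siFmr1 pcDNA as well (log2 -0.34, adjusted p = 0.00792). The Gata2 call was lost without siFmr1 nMBNL1 2 or 3 (adjusted p = 0.0554 and 0.0596), and the direct one without siFmr1 pcDNA 1 (adjusted p = 0.0647). Without any one of the siFmr1 nMBNL1 libraries 7 members were called higher.

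Other neuronal lists had members that rose and members that fell against siNT pcDNA. The shares called higher in channels and the cytoskeleton were near or under the 13.2% of all genes, while in the direct comparison more members of each of these lists were lower than higher, to be read against 7.99% higher and 9.23% lower. Of 35 axon guidance genes 9 rose and 3 fell, with a median of 0.33, and in the direct comparison 1 was higher and 9 lower. Efna2, an ephrin ligand, rose by 0.92 ± 0.15 and Slit3, a guidance ligand of ROBO receptors, by 0.66 ± 0.12 on the log2 scale, while Plxna1, a semaphorin receptor, fell by 0.69 ± 0.16. Plxna1 did not pass without any one siFmr1 nMBNL1 library or siNT pcDNA 3 (adjusted p = 0.053 to 0.069). The higher count of this list was 3, 3 and 4 without siFmr1 nMBNL1 1, 2 or 3, and 3 without siNT pcDNA 3. Of 32 genes of synapse and vesicle release 7 rose and 2 fell (median 0.16), against 10 lower and none higher in the direct comparison. Syn2, a synaptic vesicle protein, rose by 0.91 ± 0.11 and Cplx2, a regulator of vesicle fusion, by 0.95 ± 0.16. Of 29 voltage-gated channel genes 4 rose and 3 fell (median 0.22), and 11 of 28 were lower in the direct comparison. Cacna1g, a T-type calcium channel, rose by 0.73 ± 0.14 over siNT and was lower than in siFmr1 pcDNA by -0.41 (adjusted p = 0.0124, and 0.0728 to 0.0763 without siFmr1 nMBNL1 2, siFmr1 pcDNA 1 or siFmr1 pcDNA 2). In 26 genes of the neuronal cytoskeleton and growth cone 2 rose and 2 fell (median 0.20), with 8 lower in the direct comparison. Without siNT pcDNA 2 the higher counts were 10 for the cytoskeleton, 7 for channels and 10 for the synapse, and without siFmr1 nMBNL1 1, 2 or 3 they were 0, 1 and 1, 1, 1 and 2, and 6, 5 and 5.

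Part of the genes of the cytosolic ribosome and of respiration were called higher than in siNT pcDNA, and their values moved with 1 control library and with gene length. Of 47 cytosolic ribosomal protein genes 21 rose and none fell, with a median of 0.59, and of 41 oxidative phosphorylation genes 17 rose and none fell, with a median of 0.57. The direct comparison with siFmr1 pcDNA gave 26 higher and none lower (median 0.17) for the ribosome and 15 higher and none lower (median 0.15) for oxidative phosphorylation, where 7.99% of all genes were higher. Rpl11 had 35670, 23840 and 36030 normalised counts in siNT pcDNA, 49570, 48110 and 53650 in siFmr1 pcDNA, and 56170, 58120 and 62070 in siFmr1 nMBNL1 (log2 0.91 ± 0.18 over siNT). Rpl34 had 2871, 2026 and 3025 against 4500, 4550 and 4920 (log2 0.84 ± 0.15). In both genes siNT pcDNA 2 was the lowest library. Ndufv1, a subunit of complex I, had 2187, 2262 and 2488 against 3742, 3621 and 3482 (log2 0.65 ± 0.09), and Sdhb, the iron-sulfur subunit of complex II, had 11780, 8291 and 9833 against 17600, 17970 and 17060 (log2 0.83 ± 0.14). Each siFmr1 nMBNL1 library was above each siNT library for these 4 genes.

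Within siNT pcDNA the ribosomal list lay at 0.40, -0.56 and 0.14 in replicates 1, 2 and 3, as the median difference from the siNT mean on the log2 scale, and at 0.57, 0.57 and 0.62 in siFmr1 nMBNL1. Oxidative phosphorylation lay at 0.36, -0.44 and 0.14, and at 0.53, 0.56 and 0.63. The replicate with the most Rn45s, siNT pcDNA 2, was thus the lowest in both lists. Without it the medians were 0.33 with 25 of 47 ribosomal genes higher, and 0.31 with 22 of 41 oxidative phosphorylation genes higher and 1 lower. Without siNT pcDNA 1 the higher counts were 45 and 29, and without siNT pcDNA 3 the ribosomal count was 9. Without siFmr1 nMBNL1 1, 2 or 3 they were 4, 3 and 2 for the ribosome and 7, 8 and 7 for oxidative phosphorylation. The part that Rn45s has in these values was not tested.

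**Figure D4:**
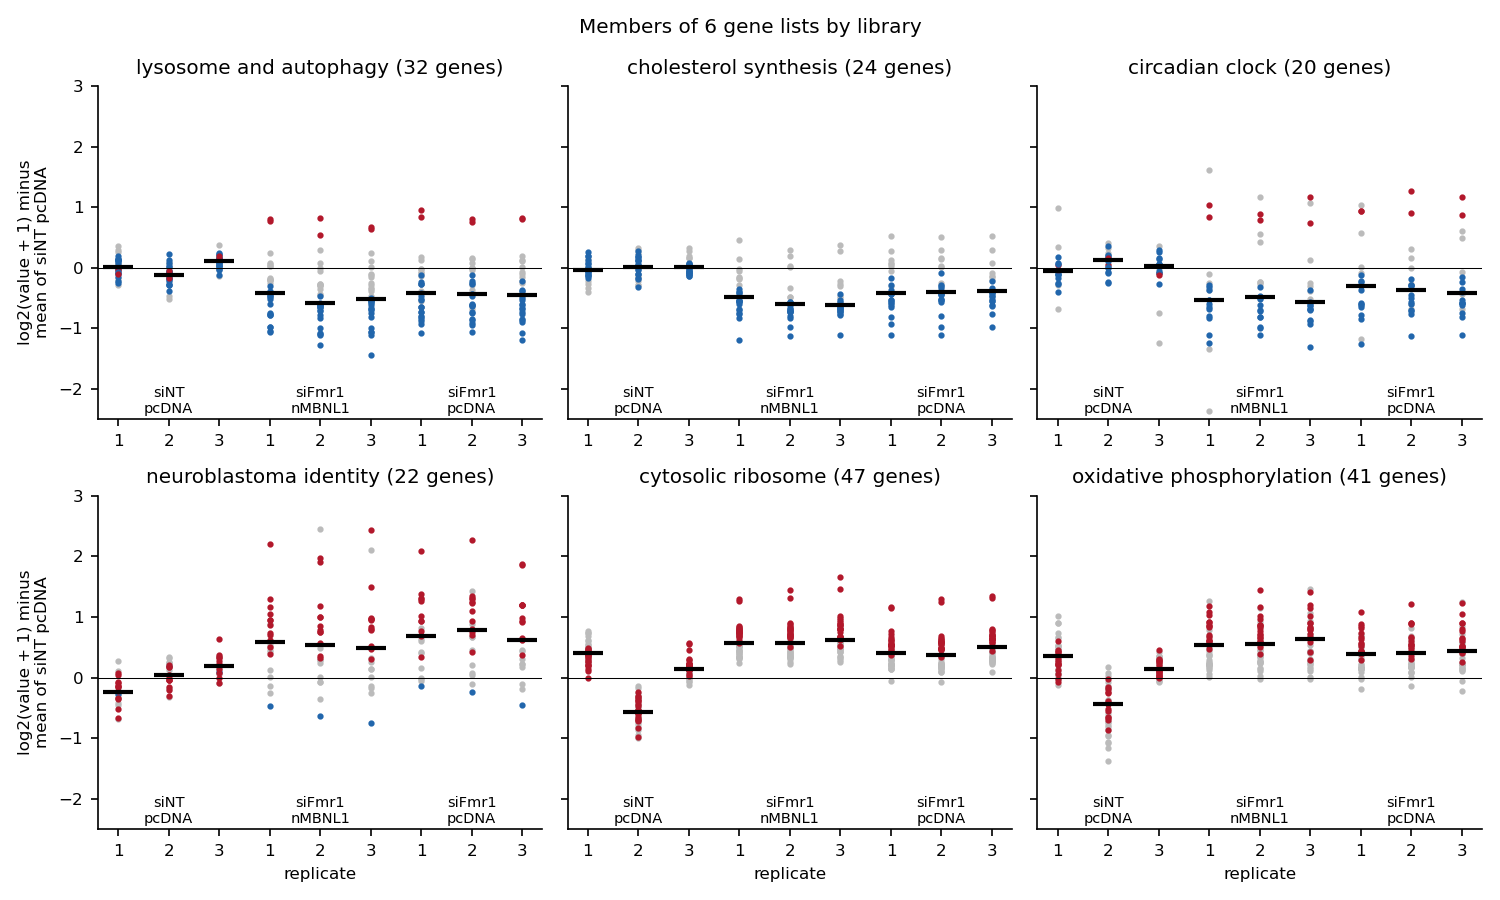
Log2 values of the tested members of 6 gene lists in 9 libraries, each minus the gene's siNT pcDNA mean, with coloured points for called genes and black bars for list medians. The lysosome, cholesterol and clock medians lie under 0 in all siFmr1 libraries, while the ribosome median within siNT pcDNA runs from -0.56 to 0.40.

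Fold changes against siNT pcDNA moved with exonic length over all genes. The median log2 fold change was 0.40 in 615 genes with an exonic length under 1000 bases, and 0.29, 0.12, -0.02 and -0.15 in the bins that start at 1000, 2000, 4000 and 8000 bases. In the shortest bin 16.6% of genes were higher and 2.11% lower, and in the longest 6.26% were higher and 21.9% lower. With each library's values corrected for exonic length before the fit, 20 ribosomal genes were higher with a median of 0.39. So were 17 oxidative phosphorylation genes, with a median of 0.30. The lysosome, cholesterol and clock medians were -0.52, -0.55 and -0.52 with that correction. What moves the values with length was not tested.

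**Figure D5:**
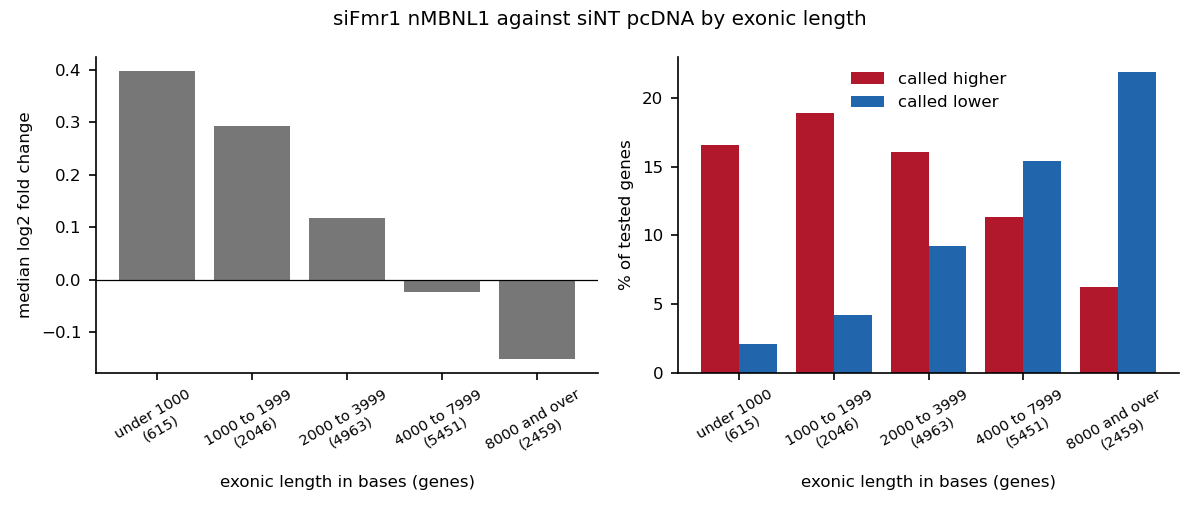
Median log2 fold change (left) and percent of tested genes called higher or lower (right) in siFmr1 nMBNL1 against siNT pcDNA, by exonic length in bases with the number of genes in brackets. The median goes from 0.40 in the shortest genes to -0.15 in the longest.

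Among genes for RNA-binding proteins, neuronal splicing regulators had the most calls for their number with all 6 libraries, mainly lower ones. In the list of FMRP, its paralogues and its partners 2 of 10 fell and none rose, Fmr1 itself and Nufip2, an FMRP-interacting protein, with 7457, 7733 and 7327 normalised counts against 4664, 5359 and 5720 (log2 -0.52 ± 0.10). Among 7 muscleblind and CELF genes, Mbnl1 rose and Mbnl2 fell, with 4151, 3982 and 4119 against 2988, 2885 and 3039 (log2 -0.46 ± 0.09). Each Mbnl2 library with nuclear MBNL1 lay under each siNT library. Of 17 neuronal splicing regulators 7 fell and 1 rose, with a median of -0.17, and in the direct comparison 7 were lower and none higher (median -0.15, against 9.23% of all genes lower). Nova1 had 1757, 2021 and 1639 against 832, 966 and 1066 (log2 -0.92 ± 0.13), and 971, 983 and 953 in siFmr1 pcDNA. Qk, the RNA-binding protein quaking, had 3910, 5104 and 3894 against 2630, 2913 and 2846 (log2 -0.61 ± 0.12). Elavl4, a neuronal ELAV protein, was the member that rose, with 3340, 3909 and 3316 against 5111, 5333 and 5208 (log2 0.57 ± 0.10). The lower count of this list was 2 without any one siFmr1 nMBNL1 library or with upper-quartile scaling, and 4 without siNT pcDNA 3. Without any one siFmr1 nMBNL1 library 1 member rose, while muscleblind and CELF genes kept 1 higher and 1 lower call. In those runs the splicing regulators no longer had the most calls for their number.

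Of 14 SR proteins and related factors 3 rose and 1 fell, with a median of 0.00. Srrm2, a large spliceosome-associated protein, was the one that fell, with 16890, 22300 and 18440 normalised counts against 11340, 11510 and 11590 (log2 -0.73 ± 0.12). It was lower than in siFmr1 pcDNA, with 15180, 15020 and 15230 (direct difference -0.40, adjusted p = 0.000107). Of 24 hnRNP genes 3 rose and 2 fell (median 0.09), among them Hnrnpa1 with 15950, 15030 and 15460 against 9451, 9935 and 11070 (log2 -0.61 ± 0.11). In siMbnl1 pcDNA Hnrnpa1 had 16880, 17140 and 17160, near siNT pcDNA. Of 35 messenger RNAs known as FMRP targets 6 fell and 5 rose, with a median of -0.12 that became 0.02 with the length correction. In the direct comparison 13 of 36 were lower and 2 higher. Bsn, a scaffold of the presynaptic active zone, fell by 0.85 ± 0.17, while Adgrb2, an adhesion receptor, and Kif1a, a vesicle motor, rose by 1.38 ± 0.21 and 1.81 ± 0.29 on the log2 scale. Without any one siFmr1 nMBNL1 library 2 FMRP targets fell and 3 rose, and without siNT pcDNA 1 the lower count was 11. No SR gene rose without any one siFmr1 nMBNL1 library or siNT pcDNA 3. Of the hnRNP genes 1, 1 and 2 rose without siFmr1 nMBNL1 1, 2 or 3, and 6 without siNT pcDNA 2. Splicing itself was not analysed here.

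In 3 signalling lists more members fell than rose. Of 24 immediate early genes 7 fell and 1 rose, with a median of -0.33. Besides Egr3, Klf4, a zinc-finger transcription factor, fell by 1.03 ± 0.13 on the log2 scale, and Arc, the activity-regulated cytoskeletal gene, rose by 0.84 ± 0.16. Only 3 fell without any one siFmr1 nMBNL1 library or without siNT pcDNA 3, and 4 with upper-quartile scaling. Of 17 feedback genes of the ERK pathway 4 fell and none rose (median -0.25), among them the phosphatase gene Dusp1 (log2 -0.89 ± 0.12) and Spred3 (log2 -0.63 ± 0.12), an inhibitor of the pathway. Spred3 was lower than in siFmr1 pcDNA by -0.50 (adjusted p = 0.00054). That lower count was 2 without any one siFmr1 nMBNL1 library, without siNT pcDNA 3 or with upper-quartile scaling, and 8 without siNT pcDNA 1. Of 30 TGF-beta and BMP genes 9 fell and 2 rose (median -0.13). Both called receptor-regulated SMAD genes fell, Smad1 by 1.14 ± 0.13 and Smad3 by 1.13 ± 0.14, and the ligand gene Tgfb3 rose by 0.85 ± 0.12. The lower count was 4 without any one siFmr1 nMBNL1 library or with upper-quartile scaling.

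Targets of hypoxia signalling were lower in siFmr1 nMBNL1 than in siFmr1 pcDNA, and in part lower than in siNT pcDNA. Of 21 tested 7 fell and 1 rose against siNT, with a median of -0.31, and in the direct comparison 16 were lower and none higher, with a median of -0.47, where 9.23% of all genes were lower. In siFmr1 pcDNA against siNT pcDNA 6 rose and 1 fell, with a median of 0.22. Kdm3a, a histone demethylase, fell by 1.06 ± 0.12 against siNT, and Vegfa, the vascular growth factor, by 0.51 ± 0.10 (adjusted p = 0.0579 without siFmr1 nMBNL1 2). The direct difference was -0.47 ± 0.05 for Vegfa (adjusted p = 0.000104). Ndrg1, a stress-responsive gene chosen after its values were seen, did not pass the test against siNT (log2 -0.36 ± 0.32) and was lower than in siFmr1 pcDNA by -1.45 ± 0.26 (adjusted p = 0.00235). Higd1a, a mitochondrial protein, rose by 0.99 ± 0.20. The lower count against siNT was 3 without siFmr1 nMBNL1 2, and 4 without siFmr1 nMBNL1 3, without siNT pcDNA 3 or with upper-quartile scaling. Of 22 glycolysis genes 2 fell and 1 rose (median -0.12), with 5 lower without siFmr1 nMBNL1 1, 7 without siNT pcDNA 2 and 0 without siFmr1 nMBNL1 2 or 3 or siNT pcDNA 3, and in the direct comparison 13 were lower and 1 higher (median -0.26).

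Genes of cell surroundings and fate were mixed. Of 32 extracellular matrix and mesenchymal genes 9 fell and 1 rose, with a median of 0.08, and in the direct comparison 11 were lower and none higher (median -0.28). The collagen gene Col18a1 rose over siNT by 0.77 ± 0.16 and was lower than in siFmr1 pcDNA by -0.64 (adjusted p = 0.00134). The lower count was 5 and 4 without siFmr1 nMBNL1 1 or 2. Of 24 Notch pathway genes 6 rose and 4 fell (median 0.16). Lfng, a glycosyltransferase that modifies Notch, rose by 1.29 ± 0.19, and Maml1, a coactivator, fell by 0.93 ± 0.12. Without any one siFmr1 nMBNL1 library 2 rose and 2 fell. In the Wnt list 5 of 32 rose and 5 fell (median 0.12), with a rise of the receptor gene Fzd2 by 1.13 ± 0.18. The lower Wnt count was 3, 1 and 1 without siFmr1 nMBNL1 1, 2 or 3, and 1 without siNT pcDNA 3, and the higher count was 3 without any one siFmr1 nMBNL1 library.

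Some interferon response genes were lower than in control cells. Of 42 tested 9 fell and 1 rose, with a median of -0.20. In siFmr1 pcDNA against the same controls 13 fell and 1 rose (median -0.30), and the direct comparison had 8 higher and 1 lower, with a median of 0.17. Rsad2, the antiviral enzyme viperin, fell by 0.84 ± 0.16, and Psmb8, an immunoproteasome subunit, rose by 0.70 ± 0.11 on the log2 scale. The direct difference for Rsad2 was 0.38 (adjusted p = 0.0639). Without siFmr1 nMBNL1 1, 2 or 3 the lower count was 3, 3 and 5, with upper-quartile scaling 5, and with the length correction 16. Summed immune cell markers were also lower, at 16.5 to 27.2 against 51.8 to 82.5. In each group only 1 of these 8 markers reached a mean of 10. Of 3 tested 1 was called lower, Cd68, so the sum rests on few low genes. Their part in these values was not tested.

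Genes of proliferation changed in few members against siNT. Of 37 DNA replication genes 4 rose and 3 fell, with a median of 0.04, and of 34 cell cycle genes 2 fell and none rose, with a median of 0.00. In the direct comparison with siFmr1 pcDNA 21 replication genes were higher and none lower (median 0.21), and 8 cell cycle genes higher and none lower (median 0.12), where 7.99% of all genes were higher. Tk1, thymidine kinase, rose by 0.69 ± 0.14 over siNT, and Cdc6, a licensing factor of replication origins, fell by 0.60 ± 0.11. Of 24 p53 targets 6 fell and 3 rose (median -0.10), among them Gadd45a, a growth arrest gene, which fell by 0.94 ± 0.16, and Aen, an apoptotic nuclease, which rose by 0.50 ± 0.09. Upper-quartile scaling, which shifts all genes upward, bears on lists with medians this close to 0. With it 3 cell cycle genes rose, and 4 rose without siNT pcDNA 2 or with all 15 libraries in 1 fit. Single libraries moved these small counts too: 1 replication gene rose without any one siFmr1 nMBNL1 library and 8 without siNT pcDNA 1, 7 fell without siNT pcDNA 2, no cell cycle gene fell without any one siFmr1 nMBNL1 library, and 2, 2 and 3 p53 targets fell without siFmr1 nMBNL1 1, 2 or 3. Calls were 1 higher and 1 lower of 21 heat-shock proteins, 4 higher and 1 lower of 26 translation initiation genes, 4 higher and 4 lower of 27 glutathione and NRF2 targets, and 5 higher and 1 lower of 25 replication-dependent histones. The last pair of lists had shares near the 25.7% of all genes, and the first pair smaller ones. Without any one siFmr1 nMBNL1 library 1 translation initiation gene rose.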

How the data were processed

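Gene-level values of the 15 libraries of the co-transfection experiment came from 1 table, which the authors deposited as a signal, normalised read counts per gene. The normalisation is not stated, and whole reads could not be recovered from the values: 86.2% to 92.5% of low values per library lay within 0.1 of a whole number of the smallest step. Raw counts were not used here. Per the labels' protocols, RNA was extracted with TRIzol and a Direct-zol kit, and the NEBNext Ultra II Directional kit gave libraries that were run on the NovaSeq 6000. The submitters' processing notes name CASAVA, FastQC 0.11.8, Trimmomatic 0.39, Bowtie2 2.3.5, STAR 2.6.1, RSEM 1.3.1 and DESeq2 1.16.1 without roles, and the build GRCm38 (mm10). Groups came from the sample titles. Of 23091 rows, 4 with repeated, date-like names were left out, leaving 23087 genes.

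Genes whose mean over the 6 compared libraries reached 1 were tested on log2(value + 1) with limma (version 3.58.1, R 4.3.3, moderated with an intensity trend) on those libraries alone, and called at a Benjamini-Hochberg adjusted p under 0.05 over all tested genes. Fold changes on the log2(value + 1) scale understate the change of low genes. Folds are ratios of group means. Values are printed to at most 4 significant digits, and intervals are at 95%. The script was tested on simulated data. Exonic lengths and gene positions are from the GRCm38 annotation (GENCODE M21), and promoter windows from RefSeq (GRCm38.p6). Figures were drawn with matplotlib 3.10.9.

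The gene lists and the comparison were chosen with earlier results of these data known. Named genes were Fmr1 and Mbnl1, the 6 called genes of largest change in each direction with a mean of at least 50 and at least 10 in every library, the 3 further ones with a mean of at least 20 in the higher group, the 4 of smallest adjusted p, and in each list the 2 called members of smallest adjusted p in each direction. Lists with at most 8 calls could give further members. The first of these groups needed groups that do not overlap, and predicted or clone-named genes were left out. Alternatives were a fit of all 15 libraries, other pseudocounts and filters, rescaled libraries, a replicate block, each library left out and, added after seeing the data, a correction for exonic length. Junction tables were not analysed here because their sets are not tied to groups by the labels or headers. Some named genes are not reported here.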

Additional observations from a re-analysis of the deposited data

How the results depend on the processing

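The count of 4166 genes called against siNT pcDNA was 6670 with all 15 libraries in 1 fit, 1107 with a further log2 threshold of 1, and 1787 to 5374 with single libraries left out. It stayed between 3488 and 4494 with pseudocounts of 0.5 or 8, no filter, a mean of at least 10, rescaling, the replicate block or the length correction. The direct count of 2812 was 286 with all 15 libraries, 139 with the log2 threshold of 1, and 982 to 3699 with single libraries left out. Upper-quartile scaling put 71.5% of calls against siNT and 61.1% of direct calls on the higher side, against 51.3% and 46.4%. The cause of these differences was not tested, other than that fewer libraries enter a fit with 1 left out.

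Libraries with the same number share only that number: their deviations from the group means correlated at -0.142, -0.0536 and -0.0126. With the replicate block the counts were 3488 against siNT and 4367 in the direct comparison. Of 181 named genes 110 were called in every alternative run, and none changed direction. Most calls were lost without a library: 55, 60 and 60 without siFmr1 nMBNL1 1, 2 or 3, and 9, 2 and 44 without siNT pcDNA 1, 2 or 3. Upper-quartile scaling lost 29, the replicate block 32 and the length correction, chosen after seeing the data, 13. Of the direct differences printed as lower or higher, those of Cacna1g, Gata2, Hmgcs1, Nlrp5, Per1, Pnpla3, Slc18a2 and Tcte3 did not pass with all 15 libraries in 1 fit (adjusted p = 0.0609 to 0.29). Count-based tests were not run, because whole reads were not recovered. The unknown depth and the 3 libraries per group limit what can be detected in genes of low level.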
